A study of Mus musculus with 16 samples.

Results

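The 38 genes described here encode the machinery that works with dynamin at the plasma membrane: the clathrin chains, the AP2 adaptor, further adaptors and scaffolds, regulatory kinases, lipid phosphatases, membrane-bending proteins of the BAR family and actin partners. They were chosen by symbol, from what their proteins are known to do, and with earlier results of these data known. Their symbols were matched to Ensembl identifiers through the GENCODE annotation of the mouse build GRCm38. All 38 were found among the 29730 genes of the count table, and all 38 passed the filter on low counts that left 14960 genes for testing. RNA sequencing had been done on 16 samples of the tibialis anterior, a muscle of the shin, from male mice aged 7 weeks, labelled as strain C57BL/6N. There were 4 groups of 4 samples each: wild-type mice given saline (WT_PBS), wild-type mice given ASO1 (WT_ASO), Bin1mck-/- mice given saline (KO_PBS) and Bin1mck-/- mice given ASO1 (KO_ASO). ASO1 is an antisense oligonucleotide, a synthetic nucleic acid that lowers the RNA it pairs with, and its target is Dnm2. Bin1mck-/- mice carry a deletion of Bin1 and serve as a model of recessive centronuclear myopathy, a disease of muscle fibres. The source of the Cre recombinase, the deleted part of Bin1 and the dose and timing of ASO1 are among the details not given in the sources used here. Each sample was taken to be a separate mouse, which the labels do not state, so p-values measure the spread between these 16 samples.

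In clathrin-mediated endocytosis, AP2 and other adaptors gather cargo on the inner face of the membrane, clathrin assembles over them into a cage, and proteins with a curved BAR domain shape the neck of the growing pit. Dynamin, of which Dnm2 is the form made in all tissues, then coils around that neck and cuts the vesicle free. Bin1, also called amphiphysin 2, is a BAR protein that binds dynamin, and in skeletal muscle it is best known for shaping the transverse tubules that carry the action potential into the fibre. Clathrin in muscle is also known to form plaques at the sites where the contractile apparatus is anchored to the membrane, together with branched actin.

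Total counts per sample ran from 27591900 to 40862854, and the 38 genes together took between 0.236% and 0.272% of them. Values are given as CPM, the reads of a gene relative to the library size after TMM scaling (trimmed mean of M values) and multiplied to a total of 1e+06. The tissue label held: 11 markers of skeletal muscle fibres summed to between 146000 and 238000 CPM in every sample. The targeted genes also followed the labels. Dnm2 was at 58.0, 53.4, 62.8 and 50.2 CPM in WT_PBS, 24.6, 23.1, 29.4 and 25.4 CPM in WT_ASO, 63.1, 61.4, 67.7 and 59.1 CPM in KO_PBS and 24.4, 20.7, 22.8 and 31.1 CPM in KO_ASO, so the groups given ASO1 did not overlap the saline groups. Bin1 averaged 495 CPM in WT_PBS and 44.9 CPM in KO_PBS. Because whole muscle was sequenced, fewer cells of a type and less RNA per cell cannot be told apart in any value below.

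Levels of different genes were compared per kilobase of annotated exon. In WT_PBS, Pacsin3 stood highest at 61.6 ± 8.23 CPM per kilobase (SD, n = 4), followed by Epn1 at 58.7 ± 8.45, Trip10 at 55.6 ± 5.34 and Sh3glb1 at 54.9 ± 2.21. These 4 genes formed a tier of their own: their values overlapped from each to the next, and the lowest of them, Sh3glb1, did not overlap Ap2a1, the next at 21.7 ± 3.10 CPM per kilobase. Cltc, the clathrin heavy chain, held rank 6 at 20.4 ± 2.10 CPM per kilobase. For comparison, Dnm2 itself stood at 10.5 ± 1.03 and Bin1 at 120.0 ± 9.86 CPM per kilobase. At the bottom were Snx33 at 1.09 ± 0.189, Fnbp1l at 0.867 ± 0.151 and Arhgap26 at 0.811 ± 0.253 CPM per kilobase. Of the 37 steps from one gene to the next, 34 joined neighbours whose WT_PBS samples overlapped, and 3 did not: Sh3glb1 over Ap2a1, Epn2 over Ap2b1 and Aak1 over Snx33.

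**Figure D1:**
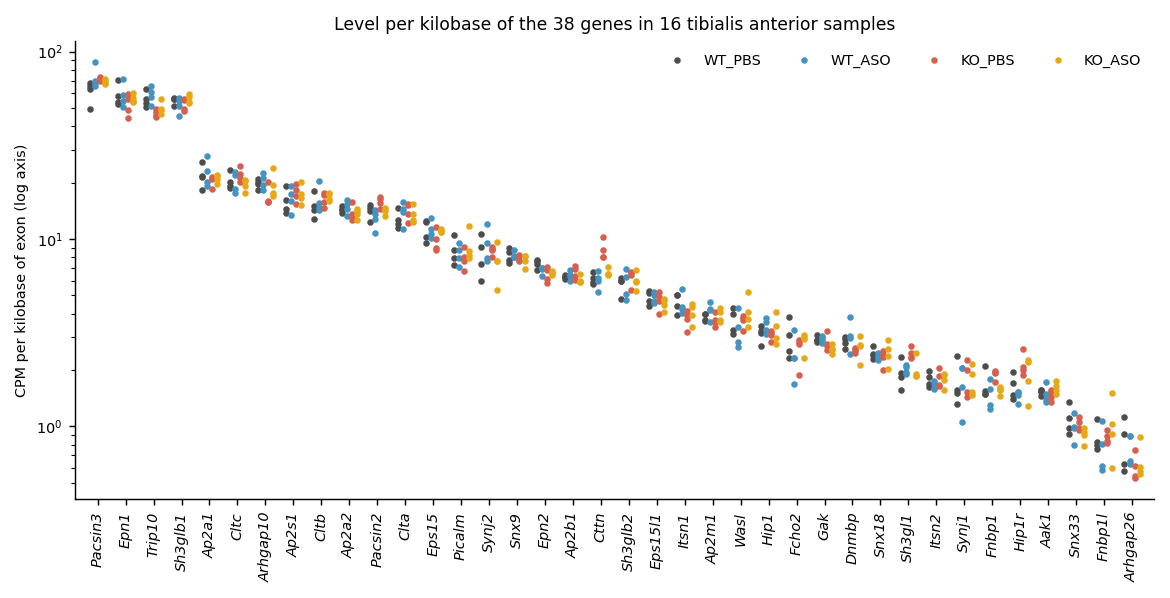
Level of each of the 38 genes in CPM per kilobase of exon (log axis), 1 point per sample, coloured by group and ordered by the WT_PBS mean. Pacsin3, Epn1, Trip10 and Sh3glb1 average 54.9 to 61.6 CPM per kilobase in WT_PBS, and Arhgap26 lies lowest at 0.811.

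Several gene families had 1 dominant member in this muscle. Arhgap10 stood 24.7 ± 7.31-fold over Arhgap26 per kilobase in WT_PBS (mean and SD of the ratio within each of 4 samples). Sh3glb1 stood 9.50 ± 1.31-fold over Sh3glb2, Epn1 7.86 ± 1.02-fold over Epn2, Synj2 4.86 ± 1.24-fold over Synj1 and Pacsin3 4.39 ± 0.821-fold over Pacsin2. Clta and Cltb, the light chains of clathrin, stood closer, with Cltb 1.17 ± 0.0869-fold over Clta. To ask whether these balances shifted, for 13 pairs of related genes and 3 comparisons the log2 ratio within each sample was compared by a two-sided exact permutation test, in which 0 of 39 tests reached p under 0.05, raw or adjusted. The lowest raw p was 0.0571, where 4 samples against 4 allow 0.0286, and the lowest adjusted p was 0.686. At 0.0571 stood the ratios of Hip1 to Hip1r and Fnbp1 to Fnbp1l in KO_PBS against WT_PBS, and Gak to Aak1 in KO_ASO against KO_PBS. The log2 ratio of Hip1 to Hip1r was 1.32 ± 0.17 in KO_PBS and 1.72 ± 0.24 in WT_PBS. That of Fnbp1 to Fnbp1l was 0.78 ± 0.08 in KO_PBS and 0.61 ± 0.07 in WT_PBS. That of Gak to Aak1 was -1.03 ± 0.1 in KO_ASO and -0.79 ± 0.14 in KO_PBS (n = 4 each, exact permutation test).

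Start sites of 34 of the 38 genes were matched to RefSeq promoter windows of build GRCm38.p6, each running from 250 bases before to 50 bases after a start. Their 47 windows had a median GC content of 64.3%, against 60.3% for the 13978 windows of genes that were tested and 52.7% for all 32851 windows. The letters GGGCGG, the core of the GC box, stood on either strand in 70.2% of the members' windows, 59.7% of the tested genes' windows and 35.7% of all windows. The E-box CANNTG was in 63.8%, 64.7% and 72.3%, its form CAGCTG in 21.3%, 15.9% and 16.3%, TATAAA in 6.38%, 7.77% and 13.6%, and CATTCC in 4.26%, 12.6% and 14.7%. CAGCTG is also counted within CANNTG. The windows below belong to Cltc, the scaffold of the coat, and to Pacsin3 and Trip10, which are among the highest of the 38 genes per kilobase. They are written 5′ to 3′ on the gene's own strand, with GGGCGG or its complement CCGCCC in capitals.
Cltc, chr11:86757518-86757817, minus strand: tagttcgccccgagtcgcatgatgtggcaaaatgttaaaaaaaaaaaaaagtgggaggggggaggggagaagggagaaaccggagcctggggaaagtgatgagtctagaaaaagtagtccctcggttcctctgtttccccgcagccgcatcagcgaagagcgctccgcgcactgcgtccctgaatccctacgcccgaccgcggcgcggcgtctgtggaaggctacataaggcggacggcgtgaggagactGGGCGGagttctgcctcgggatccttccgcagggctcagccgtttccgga
Pacsin3, first RefSeq window, chr2:91256563-91256862, plus strand: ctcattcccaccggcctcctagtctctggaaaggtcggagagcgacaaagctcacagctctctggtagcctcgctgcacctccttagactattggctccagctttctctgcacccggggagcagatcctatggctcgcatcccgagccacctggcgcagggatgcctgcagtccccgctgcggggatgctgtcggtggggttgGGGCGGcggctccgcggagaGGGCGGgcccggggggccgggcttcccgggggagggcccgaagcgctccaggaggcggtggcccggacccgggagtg
Pacsin3, further RefSeq window, chr2:91257079-91257378, plus strand: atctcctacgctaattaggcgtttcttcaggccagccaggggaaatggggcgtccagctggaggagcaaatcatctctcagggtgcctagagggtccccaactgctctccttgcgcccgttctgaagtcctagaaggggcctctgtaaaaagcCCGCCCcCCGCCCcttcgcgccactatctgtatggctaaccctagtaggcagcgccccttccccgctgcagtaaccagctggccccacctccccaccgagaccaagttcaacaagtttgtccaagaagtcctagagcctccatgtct
Trip10, chr17:57249201-57249500, plus strand: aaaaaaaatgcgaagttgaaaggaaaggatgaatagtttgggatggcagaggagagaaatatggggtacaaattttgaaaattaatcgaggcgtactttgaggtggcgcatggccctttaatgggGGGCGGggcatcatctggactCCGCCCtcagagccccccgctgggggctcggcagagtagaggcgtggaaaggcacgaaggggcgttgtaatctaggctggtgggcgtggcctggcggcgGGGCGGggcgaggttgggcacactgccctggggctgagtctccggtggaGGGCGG
Trip10 held 3 copies of GGGCGG and 1 of CCGCCC, Cltc 1 of GGGCGG, the first Pacsin3 window 2 of GGGCGG and the other 2 of CCGCCC. The gene model of Pacsin3 used for exon lengths starts at position 91255954, before both of its windows. A match in these letters is a description of the sequence, and no binding was measured.

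The first comparison asked what loss of Bin1 did to these transcripts. Between KO_PBS and WT_PBS the endocytic genes stayed close to their wild-type level: 1 of 38 differed at an adjusted p under 0.05 in the edgeR quasi-likelihood test, and that was Cttn, which was higher. That is 2.63% of them, where 12.6% of all genes tested differed (7.43% were higher). At an unadjusted p under 0.05 there were 6, namely Cttn, Sh3gl1 and Hip1r with higher and Trip10, Epn2 and Itsn1 with lower means, or 15.8% against 27.3% of all genes. The 4 samples of each group did not overlap for 3 genes, Cttn and Pacsin3 on the high side and Trip10 on the low side, or 7.89% against 20.4% of all genes. The median absolute log2 fold change was 0.13 over the 38 genes and 0.20 over all genes tested. The 38 genes had a median level of 32.3 CPM, against 8.98 CPM over all genes tested, and a median standard error of 0.11 on the log2 scale, against 0.16.

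A p that misses the threshold does not show that levels were alike, so the intervals are given too. For all 38 genes the 95% interval of the fold change lay within 2-fold of no change, against 75.4% of all genes tested. For 33 of them (86.8%) it lay within 1.5-fold, against 50.5% of all genes tested. The 5 genes whose interval reached past 1.5-fold were Cttn, Hip1r, Sh3gl1, Arhgap26 and Fcho2. Intervals are narrower where standard errors are smaller, as they were for the 38 genes. In WT_ASO against WT_PBS the shares within 1.5-fold were likewise 94.7% of the 38 genes and 59.4% of all genes. The summed level of the 38 genes was 2512 ± 85.6 CPM in WT_PBS, 2550 ± 103.9 in WT_ASO, 2473 ± 52.5 in KO_PBS and 2511 ± 20.6 in KO_ASO (SD, n = 4 each), and on this TMM scale the ranges of all 4 groups overlapped. As a share of total counts the 38 genes took 0.263% to 0.272% in KO_PBS, above WT_PBS at 0.238% to 0.257% and WT_ASO at 0.236% to 0.247% without overlap, and 0.241% to 0.266% in KO_ASO. The direction of these sums thus depends on the scale: on library totals alone, all genes had a median log2 fold change of 0.14 and the 38 genes one of 0.11 in KO_PBS against WT_PBS, with 30 above and 8 below 0, whereas with TMM the medians were -0.01 and -0.04, with 16 above and 22 below 0. The calls moved too: on library totals 5 of 38 genes (13.2%) were called, all higher, where 14.7% of all genes were called, 1942 of them higher and 260 lower, against 1112 higher and 766 lower with TMM.

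**Figure D2:**
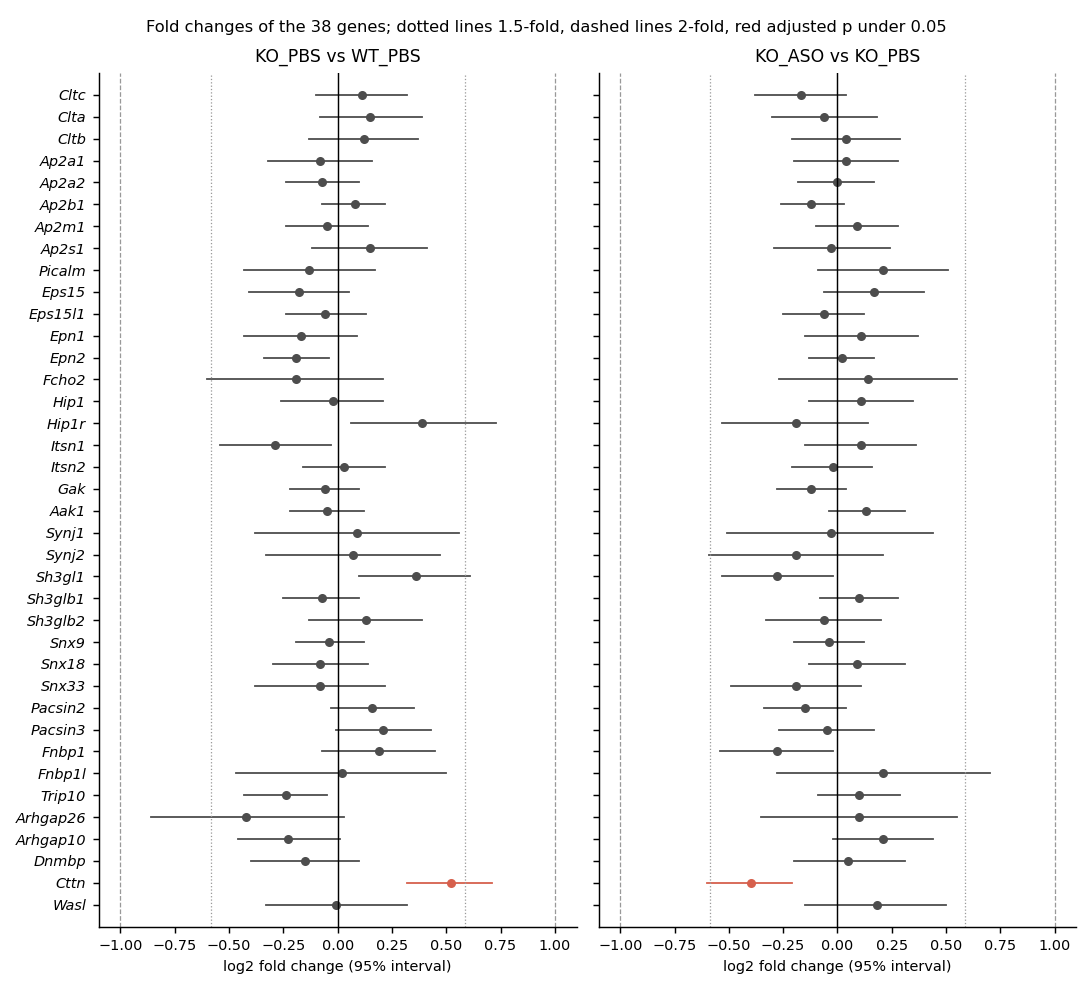
Log2 fold change with its 95% interval for each of the 38 genes, KO_PBS against WT_PBS at left and KO_ASO against KO_PBS at right (4 samples a group, edgeR). In both panels every interval lies within the dashed 2-fold lines, and only Cttn is coloured as past an adjusted p of 0.05.

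None of the 3 coat genes separated the groups. Cltc, the heavy chain that forms the legs of the clathrin triskelion, was at 171, 199, 160 and 163 CPM in WT_PBS, 186, 194, 150 and 157 in WT_ASO, 188, 179, 172 and 208 in KO_PBS and 164, 175, 174 and 150 in KO_ASO. All 4 groups overlapped, and KO_PBS against WT_PBS gave a log2 fold change of 0.11 with an interval from -0.10 to 0.32. The light chains regulate assembly of the cage. Clta was at 21.6, 22.6, 26.2 and 20.5 CPM in WT_PBS, 20.4, 25.1, 26.0 and 28.4 in WT_ASO, 21.8, 27.6, 27.2 and 24.4 in KO_PBS and 22.2, 22.6, 24.5 and 27.7 in KO_ASO. Cltb was at 62.0, 72.7, 88.1 and 69.7 CPM in WT_PBS, 69.9, 75.9, 99.7 and 72.3 in WT_ASO, 71.0, 84.0, 85.9 and 76.9 in KO_PBS and 77.3, 85.5, 79.6 and 84.8 in KO_ASO. Both light chains overlapped across all groups, and Clta had the largest difference of the coat in KO_PBS against WT_PBS at 0.15 (SE 0.11, adjusted p = 0.413, edgeR).

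AP2 links clathrin to cargo and to the lipids of the plasma membrane, and none of its 5 genes passed the test in any comparison. Ap2a1, a large alpha subunit, was at 78.4, 92.8, 111.0 and 91.7 CPM in WT_PBS, 82.0, 99.0, 119.0 and 87.0 in WT_ASO, 79.8, 90.2, 92.3 and 90.5 in KO_PBS and 84.6, 93.7, 94.7 and 89.7 in KO_ASO. Its exons overlap those of Fuz on the other strand, and how the counting used the strand is not given in the sources used here. Ap2a2, the second alpha subunit, was at 78.1, 85.2, 82.1 and 81.3 CPM in WT_PBS, 81.8, 87.5, 91.7 and 75.1 in WT_ASO, 73.8, 77.0, 71.5 and 88.9 in KO_PBS and 76.9, 80.3, 81.5 and 71.4 in KO_ASO. Both alpha subunits overlapped across all groups.

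Ap2b1, the beta subunit that binds clathrin, was the steadiest of the 38 genes, with a mean coefficient of variation within groups of 5.14%. It was at 54.8, 56.2, 53.5 and 54.8 CPM in WT_PBS, 60.1, 55.6, 56.0 and 52.1 in WT_ASO, 55.4, 52.8, 60.4 and 62.5 in KO_PBS and 51.5, 51.8, 57.3 and 52.5 in KO_ASO. Ap2m1, the mu subunit that reads sorting signals on cargo, was at 15.3, 16.3, 16.3 and 15.0 CPM in WT_PBS, 14.9, 17.3, 19.1 and 17.5 in WT_ASO, 14.0, 14.8, 15.2 and 16.7 in KO_PBS and 16.8, 17.7, 14.8 and 15.3 in KO_ASO. Ap2s1, the small sigma subunit, was at 21.4, 23.9, 28.1 and 20.2 CPM in WT_PBS, 19.8, 23.6, 28.2 and 25.6 in WT_ASO, 22.7, 26.9, 29.0 and 24.9 in KO_PBS and 22.3, 25.6, 24.3 and 29.5 in KO_ASO. None of the 5 AP2 genes separated any pair of groups compared here. Their log2 fold changes in KO_PBS against WT_PBS ran from -0.08 to 0.15, and their intervals together spanned -0.32 to 0.41, so a change of all AP2 transcripts by 1.5-fold lay outside the intervals.

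**Figure D3:**
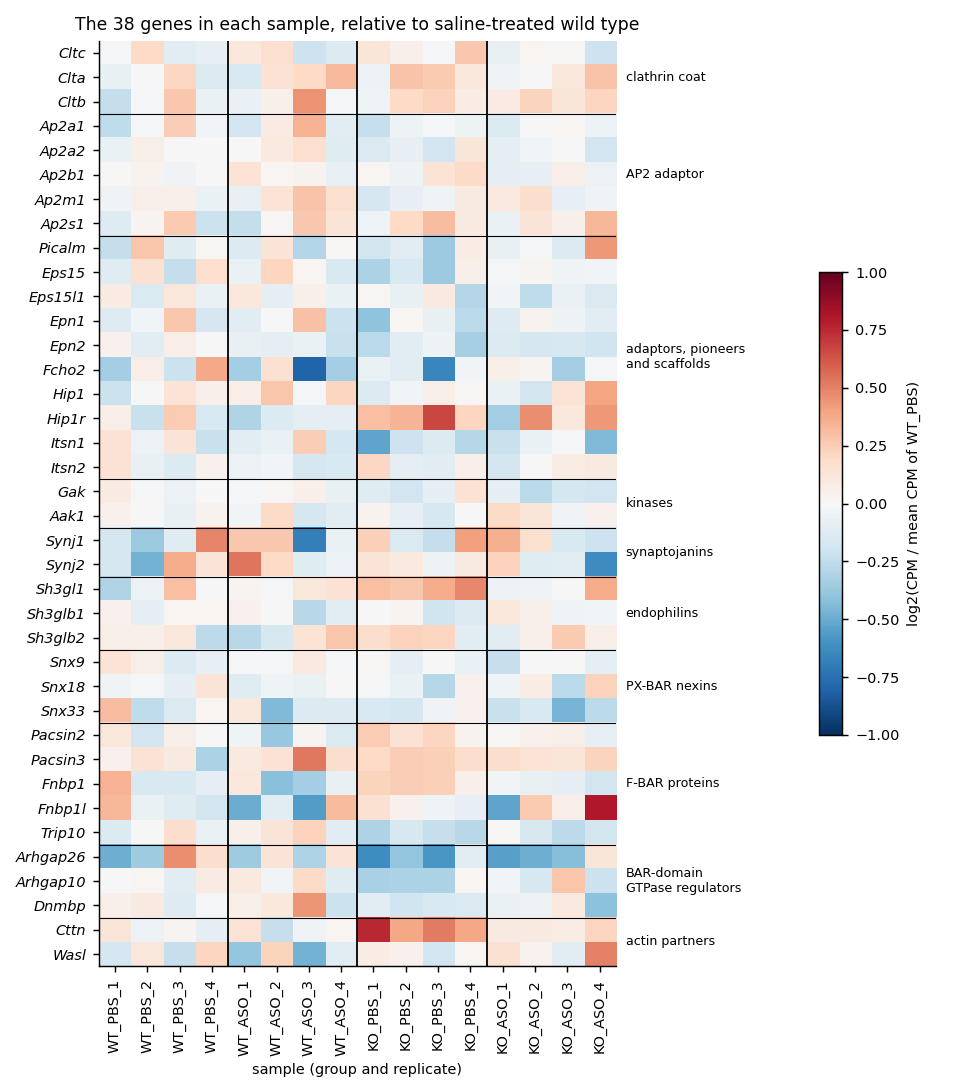
Each of the 38 genes in each of the 16 samples as log2 of CPM over the mean CPM of WT_PBS, with rows grouped by role and columns by group. Cttn is redder in each of the 4 KO_PBS samples than in any of the other 12, and single dark cells such as Fnbp1l in KO_ASO_4 and Fcho2 in WT_ASO_3 mark values of 1 sample.

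Beyond the coat and AP2, genes that did not pass in edgeR are given in every sample where they had an unadjusted p under 0.05 or groups that did not overlap, and these were chosen after their values were seen. The 10 adaptors, pioneers and scaffolds prepare and organise the pit. None passed the adjusted edgeR test in any comparison, and their log2 fold changes in KO_PBS against WT_PBS ran from -0.29 for Itsn1 to 0.39 for Hip1r. Hip1r links the coat to actin filaments. It was at 12.5, 10.3, 14.3 and 10.8 CPM in WT_PBS, 9.72, 10.9, 11.3 and 11.3 in WT_ASO, 14.8, 15.2, 19.1 and 13.9 in KO_PBS and 9.45, 16.6, 12.9 and 16.2 in KO_ASO. Of the WT_PBS samples, 1 reached into the KO_PBS range, and the difference of 0.39 (SE 0.16) had an adjusted p of 0.115 in edgeR. Hip1r was called higher in this comparison with limma-voom and sample weights and on library totals, and over the 4 groups at once with DESeq2, on library totals and without KO_ASO replicate 1. Hip1r exons overlap Vps37b on the other strand. Itsn1, a long scaffold with several SH3 domains that binds dynamin, was at 118, 103, 117 and 91.5 CPM in WT_PBS, 98.8, 102, 127 and 94.7 in WT_ASO, 74.4, 92.6, 97.1 and 87.6 in KO_PBS and 91.7, 102, 106 and 79.0 in KO_ASO. The KO_PBS and WT_PBS samples overlapped, with an adjusted p of 0.133, although Itsn1 was called lower when the replicate number was a block. Epn2, an epsin that inserts a helix into the membrane, was at 39.8, 35.9, 40.4 and 38.4 CPM in WT_PBS, 36.7, 36.1, 36.8 and 33.0 in WT_ASO, 32.0, 35.9, 37.2 and 30.6 in KO_PBS and 35.2, 34.3, 34.5 and 33.6 in KO_ASO. In KO_PBS against WT_PBS, Epn2 had a log2 fold change of -0.19 (SE 0.07, adjusted p = 0.0986, edgeR), with overlapping samples. Its KO_ASO and WT_PBS samples did not overlap, but the adjusted p was 0.556. The other members of the role, Picalm, Eps15, Eps15l1, Epn1, Fcho2, Hip1 and Itsn2, had log2 fold changes between -0.19 and 0.03 in KO_PBS against WT_PBS. Fcho2, an early-arriving F-BAR protein, ranged from 21.1 to 47.9 CPM over the 16 samples.

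Gak, which helps a chaperone strip the coat from a finished vesicle, and Aak1, which phosphorylates the mu subunit of AP2, were close to their wild-type level in KO_PBS, with log2 fold changes of -0.06 and -0.05. Gak was at 19.9, 18.5, 18.1 and 18.7 CPM in WT_PBS, 18.6, 19.0, 19.5 and 17.9 in WT_ASO, 17.3, 16.5, 17.7 and 20.8 in KO_PBS and 17.7, 15.6, 16.6 and 16.5 in KO_ASO. Its KO_ASO samples lay below both wild-type groups without overlap, by -0.18 on the log2 scale each time, with adjusted p-values of 0.556 against WT_PBS and 0.302 against WT_ASO. The synaptojanins remove phosphates from the membrane lipids that hold the coat in place. Synj1 had the widest spread of the 38 genes, with a coefficient of variation of 23.9% within groups, and its interval in KO_PBS against WT_PBS ran from -0.38 to 0.56. Synj2 ranged from 44.4 to 99.9 CPM over the 16 samples, with both the lowest and the highest value in a group given ASO1, and its exons overlap Serac1 on the other strand.

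Among the endophilins, BAR proteins that recruit synaptojanin and dynamin, Sh3gl1 had the lowest adjusted p of the genes that did not pass. It was at 7.81, 9.20, 11.8 and 9.63 CPM in WT_PBS, 9.78, 9.49, 10.4 and 10.6 in WT_ASO, 11.8, 11.6, 12.4 and 13.4 in KO_PBS and 9.29, 9.36, 9.55 and 12.4 in KO_ASO. The WT_PBS sample at 11.8 CPM lay inside the KO_PBS range, and the log2 fold change of 0.36 (SE 0.12) had an adjusted p of 0.0655 in edgeR. Sh3gl1 was past the threshold with DESeq2, with limma-voom and sample weights, on library totals and when the replicate number was a block, and also without WT_PBS replicate 3 or KO_ASO replicate 4. In KO_ASO against KO_PBS its log2 fold change was -0.28 (SE 0.12, adjusted p = 0.238). Exons of Sh3gl1 overlap Mpnd on the other strand. Sh3glb1 and Sh3glb2, which act on internal membranes and mitochondria, had log2 fold changes of -0.07 and 0.13 in KO_PBS against WT_PBS.

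**Figure D4:**
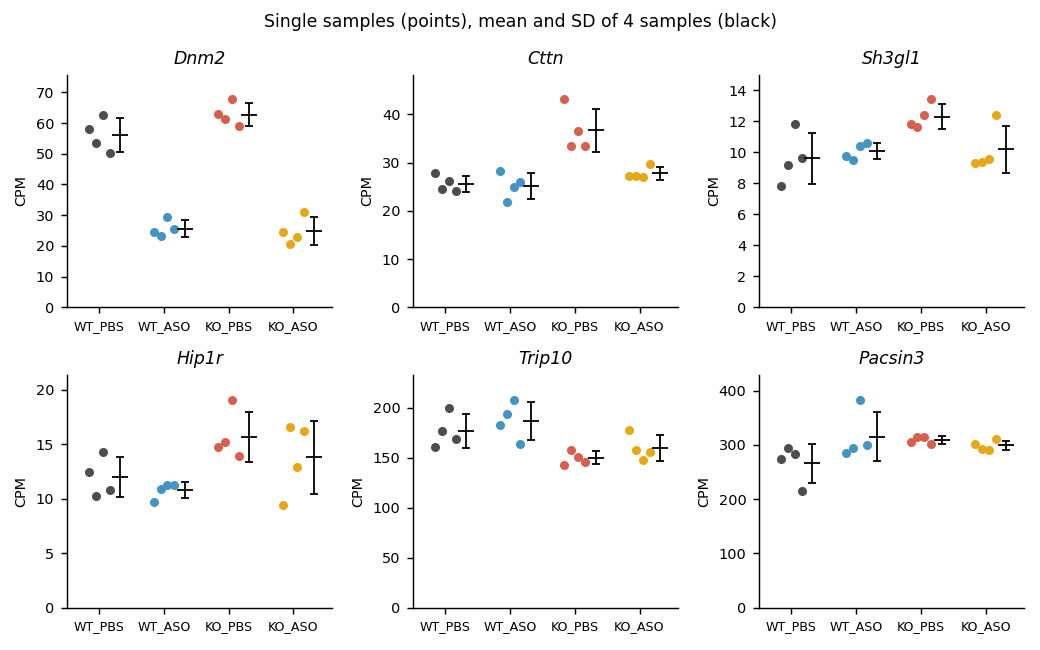
CPM in each sample (points) with the mean and SD of 4 samples (black) for Dnm2 and for Cttn, Sh3gl1, Hip1r, Trip10 and Pacsin3, on axes that start at 0. Dnm2 separates the ASO1 groups from the saline groups, while Cttn lies at 33.5 to 43.1 CPM in KO_PBS and at 21.8 to 29.7 CPM in the other 12 samples.

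The sorting nexins with a PX and a BAR domain, Snx9, Snx18 and Snx33, bind dynamin through an SH3 domain. Their log2 fold changes ran from -0.08 to -0.04 in KO_PBS against WT_PBS, and none separated the groups. Snx33 was among the least counted, with 104 to 210 reads per sample.

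None of the 5 F-BAR genes passed the adjusted test in edgeR, and 3 of them had samples that did not overlap in some comparison. Trip10, which couples curved membrane to actin assembly, was at 161, 177, 200 and 169 CPM in WT_PBS, 183, 194, 208 and 164 in WT_ASO, 143, 158, 151 and 146 in KO_PBS and 178, 158, 148 and 156 in KO_ASO. All KO_PBS samples lay below all WT_PBS samples, with a log2 fold change of -0.24 (SE 0.09, adjusted p = 0.0875). Over the 4 groups at once Trip10 was called with DESeq2 and without WT_ASO replicate 4 or KO_ASO replicate 1. Pacsin3, the syndapin of muscle, was at 274, 294, 283 and 214 CPM in WT_PBS, 284, 294, 383 and 300 in WT_ASO, 305, 315, 314 and 301 in KO_PBS and 301, 293, 290 and 310 in KO_ASO. Its KO_PBS samples lay just above those of WT_PBS, with a log2 fold change of 0.21 (SE 0.10, adjusted p = 0.197), and exons of Pacsin3 overlap Gm17281 on the other strand. Pacsin3 and Pacsin2 were called higher in this comparison on library totals, and Pacsin2 also over the 4 groups. Fnbp1 was at 21.1, 14.9, 14.9 and 15.5 CPM in WT_PBS, 17.9, 12.4, 13.1 and 15.8 in WT_ASO, 19.4, 19.7, 19.6 and 17.2 in KO_PBS and 16.3, 15.8, 15.6 and 14.6 in KO_ASO. The KO_ASO and KO_PBS samples of Fnbp1 did not overlap, with a log2 fold change of -0.28 (SE 0.12, adjusted p = 0.238). Pacsin2 had 0.16 and Fnbp1l 0.02 on the log2 scale in KO_PBS against WT_PBS.

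All 3 BAR-domain regulators of small GTPases had lower means in KO_PBS than in WT_PBS, and none passed the test. Arhgap26 had the lowest log2 fold change of the 38 genes, -0.42 (SE 0.21, adjusted p = 0.219). Its WT_PBS samples at 5.62, 6.15, 10.9 and 8.88 CPM overlapped the KO_PBS samples at 5.13, 6.01, 5.27 and 7.30 CPM. Arhgap10 had -0.23 and Dnmbp -0.15. Exons of Arhgap26 and Arhgap10 overlap Gm15337 and 0610038B21Rik on the other strand.

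Cttn encodes cortactin, which binds dynamin and stabilises branched actin at endocytic sites. The gene (ENSMUSG00000031078) lies on the minus strand at chr7:144435733-144471009 of GRCm38. Its level was 27.8, 24.6, 26.1 and 24.1 CPM in WT_PBS, 28.2, 21.8, 25.0 and 25.9 in WT_ASO, 43.1, 33.5, 36.6 and 33.5 in KO_PBS and 27.2, 27.3, 27.0 and 29.7 in KO_ASO. The 4 KO_PBS samples lay above all other 12, and the other 3 groups overlapped. KO_PBS reached 143% of WT_PBS, a log2 fold change of 0.52 (SE 0.09, interval 0.32 to 0.71, adjusted p = 0.00188, edgeR). Cttn was past the threshold in this comparison under every alternative run, with adjusted p-values from 8.17e-06 to 0.0102. Wasl, which starts branched actin filaments and is the other actin partner, had a log2 fold change of -0.01 (SE 0.15).

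The second comparison asked what ASO1 did in Bin1mck-/- muscle. In KO_ASO against KO_PBS, 1 of 38 genes passed the adjusted test, Cttn, which was lower, where 3.64% of all genes tested passed (2.83% were lower). KO_ASO had 75.7% of the KO_PBS level of Cttn, a log2 fold change of -0.40 (SE 0.09, interval -0.60 to -0.21, adjusted p = 0.026). This call was less firm than the first: it was lost when only the groups compared were fitted (adjusted p = 0.061), and without KO_PBS replicate 1 (0.0936, log2 fold change -0.32) or KO_ASO replicate 1 (0.0833), 2 (0.0614) or 3 (0.0723). In these lost calls other than the one without KO_PBS replicate 1 the log2 fold change stayed at -0.40 to -0.39. An unadjusted p under 0.05 was found for 3 of them, Cttn, Sh3gl1 and Fnbp1, all with lower means, or 7.89% against 17.7% of all genes. Samples did not overlap for 2 genes, Cttn and Fnbp1, or 5.26% against 10.4%. All 38 intervals lay within 2-fold, against 78.3% of all genes tested. Within 1.5-fold lay 35 (92.1%), against 54.7% of all genes, the exceptions being Cttn, Fnbp1l and Synj2.

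The third comparison asked what ASO1 did in wild-type muscle, where it gave no call among the 38 genes. In WT_ASO against WT_PBS 0 of 38 passed at an adjusted p under 0.05 in edgeR, DESeq2 and limma-voom with sample weights alike, where 0.00668% of all genes passed in edgeR, namely Dnm2 alone. At an unadjusted p under 0.05 there was 1, Pacsin3, with a log2 fold change of 0.24 (SE 0.10, adjusted p = 0.756), or 2.63% against 6.45% of all genes, and 0 genes had samples that did not overlap, against 3.22%. Dnm2 had fallen by 1.13 on the log2 scale in the same comparison. For all 38 partners the interval lay within 2-fold, against 82.1% of all genes tested. For 36 (94.7%) it lay within 1.5-fold, against 59.4% of all genes, the exceptions being Fcho2 and Fnbp1l. Cttn differed by -0.02 (SE 0.09, interval -0.22 to 0.17).

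Bin1mck-/- muscle given ASO1 was also set beside each wild-type group. In KO_ASO against WT_PBS 0 of 38 genes passed in edgeR, DESeq2 and limma-voom with sample weights, where 0.0401% of all genes passed in edgeR, and 2 had an unadjusted p under 0.05, Epn2 and Gak, or 5.26% against 8.22%. These same 2 genes had samples that did not overlap, against 5.39% of all genes. In KO_ASO against WT_ASO 0 passed in the 3 tools, against 0.0735% of all genes in edgeR, and 3 had an unadjusted p under 0.05, Trip10 and Gak with lower and Hip1r with higher means, against 15.1%. Gak was the 1 gene whose samples did not overlap there, against 6.97%. Against WT_PBS and WT_ASO, all 38 intervals of KO_ASO lay within 2-fold (81.1% and 79.0% of all genes). Within 1.5-fold lay 36 and 32 of them (58.9% and 54.9% of all genes). These comparisons share samples with those above and add no independent evidence. Whether ASO1 acted differently by genotype was tested as an interaction, in which 0 of 38 genes passed in the 3 tools, against 0.575% of all genes in edgeR. Of its 38 intervals, 36 lay within 2-fold and 28 within 1.5-fold, against 65.5% and 38.3% of all genes. Those of Fcho2 and Fnbp1l reached 1.01 and 1.07 on the log2 scale. Cttn was the 1 gene with an unadjusted p under 0.05, against 12.7% of all genes, and its interaction of -0.38 (SE 0.13, interval -0.66 to -0.10) had an adjusted p of 0.229. Asked over the 4 groups at once, Cttn alone passed in edgeR with an adjusted p of 0.00243, where 12.4% of all genes passed.

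Genes next to these in the same pathway were taken as 7 lists with 114 genes, of which 106 were tested. In KO_PBS against WT_PBS 14 of the 106 were higher and 5 lower, or 17.9% against 12.6% of all genes. Among dynamins and amphiphysins, 2 of 7 tested were lower, Bin1 itself at -3.46 and Amph, a close relative, at -0.95 (SE 0.25, adjusted p = 0.0225). Amph was at 0.761 CPM on average in KO_PBS and 1.47 CPM in WT_PBS. Among further cargo adaptors, Dab2 (0.67), an adaptor for lipoprotein receptors, was higher and Ston2 (-0.33) was lower. Of 10 genes for uncoating and phosphoinositides, Inppl1, a lipid phosphatase, was higher by 0.28 and Pip5k1c, a kinase that makes the lipid AP2 binds, had -0.40 (SE 0.09, adjusted p = 0.00593).

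The further BAR-domain genes had 5 of 27 higher and 0 lower, with a median log2 fold change of 0.19 over the list. Srgap3 and Srgap1, inverse F-BAR proteins that act on small GTPases, were higher by 1.87 and 0.93. The list genes given by sample, here and for Ehd4, were picked for this after their values were seen. Srgap3 was at 1.11, 1.08, 1.32 and 1.08 CPM in WT_PBS, 0.753, 0.781, 1.34 and 1.42 in WT_ASO, 5.73, 3.65, 3.29 and 4.17 in KO_PBS and 1.47, 1.69, 1.83 and 2.44 in KO_ASO. Arhgap44, a BAR protein that restrains small GTPases, was at 8.22, 9.61, 8.79 and 7.30 CPM in WT_PBS, 8.70, 7.67, 9.05 and 7.31 in WT_ASO, 21.4, 21.2, 18.4 and 16.9 in KO_PBS and 11.4, 11.0, 9.21 and 8.74 in KO_ASO. For both genes KO_PBS lay above all other samples, as for Cttn. Arhgap44 was higher by 1.20 (SE 0.12, adjusted p = 1.25e-05) in KO_PBS than in WT_PBS and changed by -0.95 (SE 0.12, adjusted p = 4.79e-04) in KO_ASO against KO_PBS. Baiap2 (0.76) and Gas7 (1.03) completed the list's calls and are named after their values were seen.

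Of 17 genes for branched actin, the structure cortactin binds, 3 were higher in KO_PBS and 0 lower, and the list's median log2 fold change was 0.20. They were Arpc2 (0.28) and Arpc3 (0.30), subunits of the complex that nucleates actin branches, and Hcls1 (0.50, SE 0.13, adjusted p = 0.0169), a relative of cortactin made in blood cells. Ap1s1, a subunit of the AP1 adaptor at the Golgi, was the 1 gene of 16 from other adaptor complexes that passed, at 0.45. Among 14 early endosome genes Stam2 (0.49), which sorts ubiquitinated cargo, and Ehd4 (1.03), which remodels endosomal tubules, were higher and Rab5b (-0.22) was lower. Ehd4 was at 71.7, 79.6, 69.5 and 66.6 CPM in WT_PBS and 192, 140, 118 and 137 CPM in KO_PBS without overlap.

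In KO_ASO against KO_PBS 0 of the 106 genes were higher and 7 lower, or 6.60% against 3.64% of all genes. Besides Dnm2 at -1.34 these were Arhgap44, Srgap3 (-1.18), Gas7 (-1.19), Ap1g2 (-0.47), Inppl1 (-0.34) and Stam2 (-0.30), of which Gas7 and Ap1g2 are named after their values were seen. In WT_ASO against WT_PBS Dnm2 was the 1 gene of 106 that passed, and it was lower. The lists were drawn up with earlier results of these data known, and they hold the targeted genes Bin1 and Dnm2. Their shares beside the background are therefore descriptions.

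**Figure D5:**
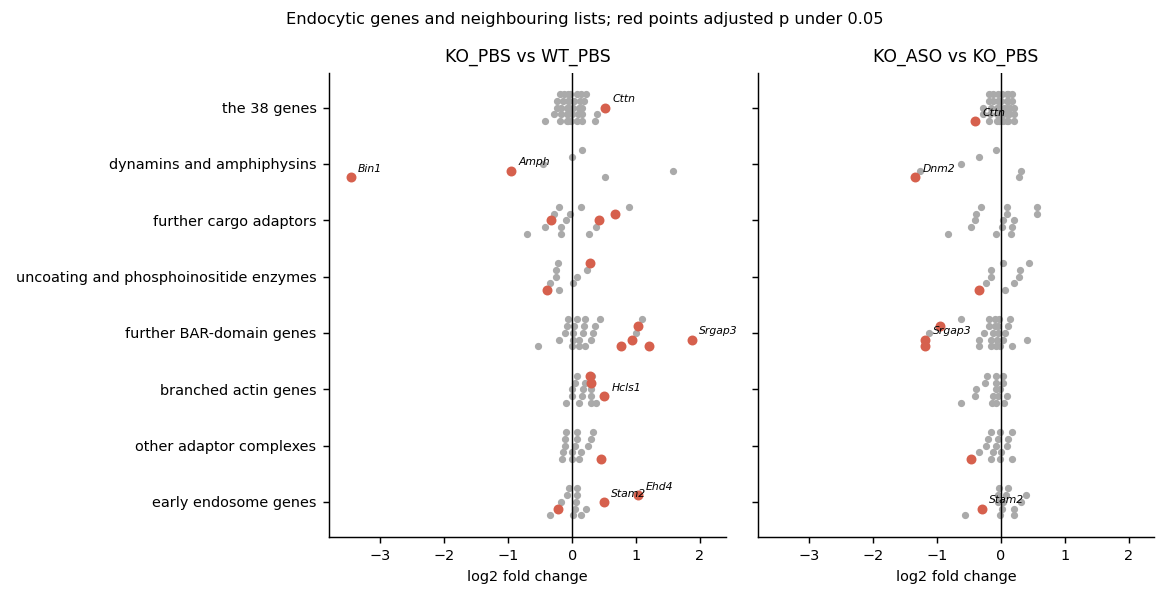
Log2 fold change of the 38 genes and of the genes tested in 7 neighbouring lists, KO_PBS against WT_PBS at left and KO_ASO against KO_PBS at right, with red points past an adjusted p of 0.05. The 38 genes lie between -0.42 and 0.52 at left, while Srgap3 among the further BAR-domain genes reaches 1.87 and Bin1 lies at -3.46.

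Other cell types changed in the same muscles. In KO_PBS against WT_PBS, 11 of 13 macrophage markers were higher and 0 lower, their summed level ran from 132 to 387 CPM in KO_PBS against 53.9 to 84.9 CPM in WT_PBS, 56.0 to 118 in WT_ASO and 57.6 to 87.8 in KO_ASO, and 7 were lower in KO_ASO than in KO_PBS. Thus the macrophage list moved between groups in the same direction as Cttn, Arhgap44, Srgap3, Gas7, Inppl1 and Stam2, and its part in their values was not tested. Nor was its part in the other list genes that were higher in KO_PBS, Dab2 and Hcls1 among them. Of 9 fibroblast markers 5 were higher in KO_PBS, with sums of 1390 to 2390 CPM against 1070 to 1410 CPM in WT_PBS, and 2 were lower in KO_ASO than in KO_PBS. Of 5 satellite cell markers 4 were lower in KO_PBS, with sums of 26.5 to 29.3 CPM against 35.8 to 42.2 CPM. The 11 fibre markers summed to 146000 to 154000 CPM in KO_PBS, below WT_PBS at 170000 to 208000 and WT_ASO at 177000 to 238000 without overlap, and to 152000 to 177000 CPM in KO_ASO, and the part of this in the values of the 38 genes was not tested. Of these markers Des was higher and Tnnt3 and Pvalb lower in KO_PBS, of 9 endothelial markers Flt1 was lower, and of 7 mural markers Cspg4 was higher and Myh11 and Notch3 lower. None of the 6 Schwann cell, 5 adipocyte and 5 red blood cell markers passed, no lymphocyte marker was counted well enough to be tested, and the 1 neutrophil marker of 4 that was tested did not pass. In WT_ASO against WT_PBS 0 markers of any list passed.

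The mean coefficient of variation within groups had a median of 10.6% over the 38 genes, against 15.3% over all genes tested. In the WT_ASO sample with replicate number 3, genes with short exon models tended to lie above the group mean and genes with long ones below it, with a Spearman correlation of -0.61 between deviation and exon length across the 38 genes and -0.16 across all 14960. In WT_ASO replicate 2 the correlations were 0.50 and 0.11, and in the other 14 samples they ran from -0.38 to 0.37 across the 38 genes and from -0.17 to 0.20 across all genes, so over all genes neither sample stood apart. Cltb, with 4868 bases of exon, had its highest value of 99.7 CPM in WT_ASO replicate 3, and Fcho2, with 12499 bases, its lowest of 21.1 CPM. The points share 1 library and genes are not independent, so no p is given. Leaving out any 1 sample, these included, left the count of the 38 genes called in WT_ASO against WT_PBS at 0. Only 1 to 4 of all genes were called there with a sample left out, so this count says little about these samples.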

How the data were processed

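RNA was extracted with TRI Reagent and sequenced with the TruSeq Stranded mRNA kit, per the labels. The authors deposited 1 table of raw gene counts, with no normalization, for the 16 samples. The submitters' processing notes list cutadapt 1.10, Bowtie2 2.2.8, STAR 2.5.3a, HTSeq 0.6.1p1 and the build GRCm38 (mm10). How the counting treated strand, and from which annotation release, is not given in the sources used here. In a stranded library counted without strand, reads of a gene and of its antisense partner could not be told apart, which touches the 8 genes whose exons overlap a gene with at least 10 counts on average on the other strand.

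Genes were filtered by group with filterByExpr, which removed 14770 of 29730, and tested with edgeR 4.0.16 (R 4.3.3) in a robust quasi-likelihood fit with TMM scaling and 1 mean per group over all 16 samples. Benjamini-Hochberg adjustment ran over the 14960 genes tested, and a gene was called at an adjusted p under 0.05. The common biological coefficient of variation was 18.7%. Standard errors were taken from the F statistic, and 95% intervals from the t distribution with the fit's degrees of freedom. Exon lengths are the union of annotated exons. Paralogue ratios used a pseudocount of 0.5 CPM, and their permutation tests scipy 1.17.1. Alternatives were DESeq2 1.42.0, limma-voom with sample weights (limma 3.58.1), other scalings and filters, the replicate number as a block, the compared groups only, and leaving out each sample.

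Total counts per sample of 27591900 to 40862854 gave the 38 genes a median standard error of 0.11 on the log2 scale. Within groups, samples correlated at 0.974 to 0.988 and no 2 differed by as little as counting noise. Replicate numbers were not used to pair samples, since the labels do not say what they mark and not every same-numbered correlation was above 0.1. The 38 genes, the 7 lists and the markers were chosen with earlier results of these data known. Values in every sample are given for the clathrin and AP2 genes and for called genes among the 38, uncalled ones are named where they had the largest change of their role, and up to 3 called genes are named per list. Other genes were named after their values were seen, as said beside them. Some results on neighbouring genes are not reported here.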

Additional observations from a re-analysis of the deposited data

Results flagged for a closer look

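Over 160 sets of 4 samples, 1 for each of the 38 genes, Dnm2 and Bin1 in each group, 11 held a sample that stood apart from the other 3 by Dixon's test at the 95% level. Chance flags about 1 in 20 groups, or 8 here. In WT_PBS, Sh3glb2 was at 19.0 CPM in replicate 4 (23.8 to 24.6 in the others) and Fnbp1 at 21.1 CPM in replicate 1 (14.9 to 15.5). In WT_ASO, replicate 3 held Pacsin3 at 383 CPM (284 to 300.0) and Snx9 at 31.5 CPM (29.1 to 29.2). In KO_PBS, Ap2a1 was at 79.8 CPM in replicate 1 (90.2 to 92.3), Fcho2 at 23.4 CPM in replicate 3 (34.2 to 36.1), Fnbp1 at 17.2 CPM in replicate 4 (19.4 to 19.7) and Arhgap10 at 61.8 CPM in replicate 4 (48.6 to 48.9). In KO_ASO, replicate 4 held Sh3gl1 at 12.4 CPM (9.29 to 9.55), Arhgap26 at 8.57 CPM (5.40 to 5.88) and Cttn at 29.7 CPM (27.0 to 27.3). Replicate 4 of KO_ASO thus gave 3 of the 11. The Cttn sample was still below all 4 KO_PBS samples. Without KO_ASO replicate 4, Sh3gl1 joined Cttn among the genes called in KO_PBS against WT_PBS.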

How the results depend on the processing

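In KO_PBS against WT_PBS the number of the 38 genes called was 1, and it was 2 with DESeq2 (Cttn and Sh3gl1; 5.26% against 16.9% of all genes), 3 with limma-voom and sample weights (also Hip1r; 7.89% against 18.0%), 5 on library totals (Cttn, Sh3gl1, Pacsin3, Pacsin2 and Hip1r, all higher; 13.2% against 14.7%) and 1 to 2 when 1 sample was left out. In KO_ASO against KO_PBS it was 1, and 0 with the compared groups only (2.09% of all genes) and 0 to 1 when 1 sample was left out, the call being lost without KO_PBS replicate 1 or KO_ASO replicate 1, 2 or 3. Over the 4 groups at once it was 1, and 3 with DESeq2 (Cttn, Trip10 and Hip1r; 7.89% against 20.3% of all genes), 4 on library totals (Cttn, Pacsin2, Hip1r and Sh3gl1; 10.5% against 14.9%) and 1 to 3 when 1 sample was left out (Trip10 joined without WT_ASO replicate 4, Trip10 and Hip1r without KO_ASO replicate 1). In the other 4 comparisons it was 0 under every alternative run. The cause was not tested. Cttn in KO_PBS against WT_PBS was called under all alternatives, with log2 fold changes of 0.43 to 0.67. In KO_ASO against KO_PBS they ran from -0.50 to -0.32. Paralogue ratios gave 0 calls with pseudocounts of 0.1 and 2 CPM. Leaving out a sample (smallest p possible 0.0571) or pairing (0.125) could not reach the threshold there and was not run.

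Replicate numbers were shared between groups, but same-numbered samples correlated at -0.078 to 0.435, above 0.1 in 11 of 24 pairs, and the own number correlated best of the 4 in 29 of 48 combinations, a hint from the data, not from the design. With the replicate number as a block, 3 genes were called in KO_PBS against WT_PBS (Cttn and Sh3gl1 higher, Itsn1 lower; 7.89% against 15.5% of all genes), and the number called stayed the same in the other comparisons.

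Over all genes, the calls were 1878 in KO_PBS against WT_PBS (997 to 2137 with 1 sample left out) and 544 in KO_ASO against KO_PBS (208 to 831, DESeq2 1056, limma-voom with sample weights 1190, compared groups only 300.0). They were 1 in WT_ASO against WT_PBS (1 to 4, DESeq2 33, no filter 3, block 2), 6 in KO_ASO against WT_PBS (4 to 11, DESeq2 95), 11 in KO_ASO against WT_ASO (2 to 19, DESeq2 408, limma-voom with sample weights 2, RLE scaling 6, block 44, compared groups only 2), 86 for the interaction (23 to 102, DESeq2 378) and 1860 over the 4 groups (864 to 2213, DESeq2 3034). The spread of 4 samples a group limits what could be detected to about the widths of the intervals given.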
